A study of Mus musculus with 11 samples.

Results

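The genes described here encode deadenylation machinery, the enzymes and scaffolds that shorten the poly(A) tails of messenger RNA. They were the 10 rows of the count table whose mouse gene symbol was Cnot1, Cnot2, Cnot3, Cnot6, Cnot6l, Cnot7, Cnot8, Cnot10, Pan2 or Pan3, out of 53947 gene rows. Expression was measured by mRNA sequencing in alphaTC1-6, an immortalised mouse pancreatic alpha cell line, in 11 libraries. The groups were scramble control (3 libraries), Mettl3 KD (knockdown, 4 libraries) and Mettl14 KD (4 libraries), all from cells reverse transfected in ordinary growth medium and collected 72 h later. The sources used here do not name the knockdown reagent. Whether replicates came from separate cultures is likewise unstated, so the p-values rest on the spread among these libraries, which may be technical.

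METTL3 and its partner METTL14 are the core of the complex that writes N6-methyladenosine (m6A) on mRNA, and YTHDF proteins read the mark. YTHDF2 is known to bind CNOT1, the scaffold of the CCR4-NOT complex, and so to bring deadenylation to methylated transcripts. CCR4-NOT carries a Ccr4-type nuclease (CNOT6 or CNOT6L) and a Caf1-type nuclease (CNOT7 or CNOT8). The PAN2-PAN3 complex is a separate deadenylase, known for trimming long tails before CCR4-NOT takes over.

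Because the knockdowns target the m6A writer, the 5-base motif GGACT, the DNA spelling of a favoured m6A context, was located in 1 GENCODE M21 transcript model of each gene, on the sense strand alone. For each of the 8 genes that held the motif, the copy nearest the stop codon is shown with 10 bases on either side, 5′ to 3′, with the motif in capitals. These windows show where the writer's favoured letters lie in the members, and they are not measured m6A sites.
Cnot1, coding part, 463 bases before the end of the stop codon: ctctacgtagGGACTcaggctatcg
Cnot2, 3′ UTR, 819 bases after the stop codon: gctggtcaggGGACTttgtcgccct
Cnot6, 3′ UTR, 200 bases after the stop codon: tgctagacagGGACTggtgtgttta
Cnot7, coding part, 528 bases before the end of the stop codon: tgtatgctcaGGACTctatagagct
Cnot8, coding part, 57 bases before the end of the stop codon: atgaggatgtGGACTgtgcccagga
Cnot10, coding part, 310 bases before the end of the stop codon: aactctgcccGGACTgtgatgctct
Pan2, coding part, 75 bases before the end of the stop codon: gccgaaagatGGACTggaaggtgcc
Pan3, 3′ UTR, 1013 bases after the stop codon: caaaggaacaGGACTtttgataaaa

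Library totals ran from 19576632 to 22406527 estimated counts, and the members received between 324 counts (Cnot8) and 6452 counts (Cnot1) in a library. Mettl3 ran from 14 to 16.0 CPM (counts scaled to library size) in scramble and from 5.01 to 5.98 in its knockdown. Mettl14 ran from 23.4 to 26.8 CPM in scramble and from 13.9 to 15.5 in its knockdown, so both targets were lower in every library of their group. Of 10 alpha cell markers, 9 were detected well enough to test, Gc was at 0 in every library, and Gcg, which encodes glucagon, ran from 28740 to 38730 CPM. Scramble replicate 2 stood apart: 17 markers of lung, blood and stromal cells summed to 162.4 CPM in it against 3.83 to 9.27 in the other 10 libraries, and its alpha cell markers summed to 34930 CPM against 38570 to 45530. The same library was the lowest of all 11 for Cnot2 and Pan2 and the highest of all 11 for Cnot3 and Cnot7. The part of those markers in the results was not tested. Values without this library are given for some results, and results given without such values may have moved too.

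The 10 members were expressed in every library, at levels that spanned an order of magnitude per unit of transcript length. In scramble, Cnot6l stood highest at 58.8 ± 2.08 CPM per kilobase (SD, n = 3), followed by Cnot7 at 51.6 ± 2.57 and the scaffold Cnot1 at 32.9 ± 0.30. With these transcript models the other structural subunits were below it, with Cnot2 at 26.6 ± 0.86, Cnot10 at 24.8 ± 0.41 and Cnot3 at 23.6 ± 1.18 CPM per kilobase. Cnot6 reached 16.0 ± 0.71 and Cnot8 7.77 ± 0.04, with 1 gene of each enzyme pair above its alternative under these models. Pan3 at 6.75 ± 0.17 and Pan2 at 5.11 ± 0.54 CPM per kilobase closed the order. The ranges of Cnot10 and Cnot3 overlapped in scramble, no other neighbours in the order did so there, and the order of the means was the same in both knockdowns. The order depended on the transcript chosen. The Cnot6l scramble level was 21.8 CPM per kilobase with its longest complete coding transcript and 89.2 with its shortest, and Cnot6 went from 16.0 to 36.8 in the same way. With their shortest complete coding transcripts, Cnot2 at 70.4 and Cnot10 at 41.02 CPM per kilobase stood above Cnot1 at 33.9.

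Mettl3 knockdown was compared with scramble to ask whether lower Mettl3 mRNA came with altered expression of the machinery that acts downstream of m6A. These libraries measure neither METTL3 protein nor m6A. Mettl14 transcripts were called higher in this knockdown under all 19 alternative settings, by 0.17 to 0.27 on the log2 scale. Transcripts of 2 of the 10 members fell, Cnot3 and Cnot6l, and none rose. Over all 14133 genes tested, 31.3% passed the same test (edgeR's quasi-likelihood test, Benjamini-Hochberg adjusted p under 0.05), 15.5% higher and 15.8% lower. Beside the 0 of 10 members called higher by edgeR, 0 were called higher by DESeq2 or limma-voom. At an unadjusted p under 0.05, 3 members passed, Cnot2 on the higher side and Cnot3 and Cnot6l on the lower, where 40.9% of all genes tested did. The members' median log2 fold change was 0.03, within a range from -0.15 to 0.09, and their median absolute log2 fold change was 0.07 against 0.13 over all genes tested. In bulk RNA, fewer cells of a type and less RNA per cell cannot be told apart, here or below.

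In Mettl14 knockdown against scramble, 2 of the 10 members fell, Cnot6l and Cnot7, and none rose, where 20.9% of all genes tested passed in either direction, 10.1% higher and 10.8% lower. DESeq2 and limma-voom, too, called 0 members higher. An unadjusted edgeR p under 0.05 was reached by 3 members, Cnot10 on the higher side and Cnot6l and Cnot7 on the lower, against 33.5% of all genes tested. The members' median log2 fold change was 0.01, from -0.14 to 0.08, and their median absolute change was 0.07 against 0.11 over all genes tested. Both knockdowns were compared with the same 3 scramble libraries, so the fall of Cnot6l in both is not 2 independent observations. For the 8 members not called, the 95% intervals of the fitted change reached from -12.9% (Pan3) to 16.4% (Cnot8) in Mettl3 knockdown, and from -10.8% (Cnot3) to 13.2% (Pan2) in Mettl14 knockdown.

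**Figure D1:**
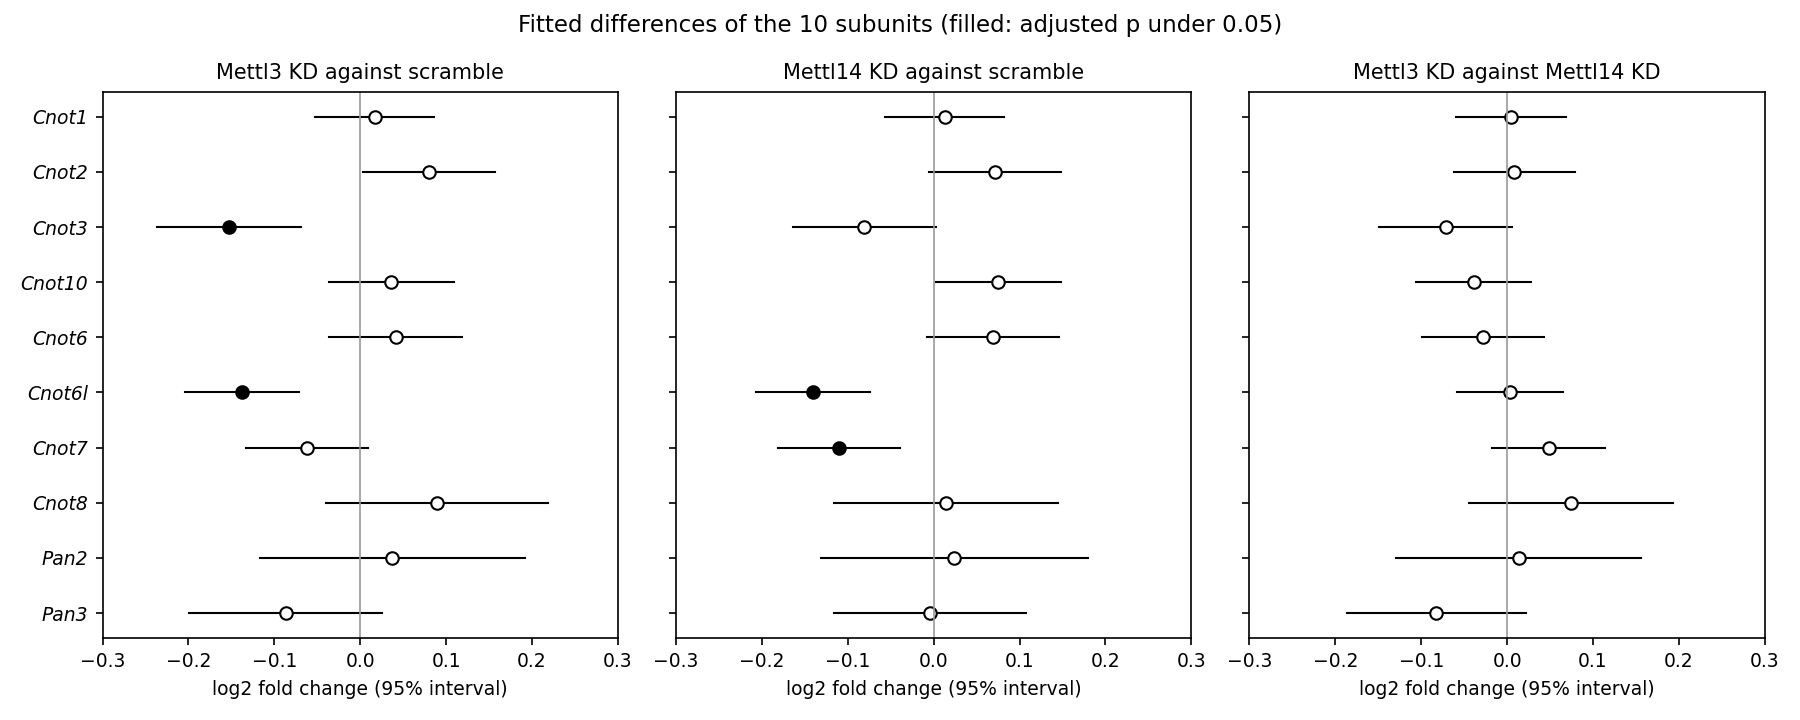
Fitted log2 fold change of each of the 10 genes (points) with its 95% interval (bars) in the 3 comparisons, from edgeR; filled points have an adjusted p under 0.05. Cnot3 and Cnot6l are filled on the lower side for Mettl3 knockdown, Cnot6l and Cnot7 for Mettl14 knockdown, and no point is filled between the knockdowns.

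Directly compared, the knockdowns gave no called difference for any of the 10 members, against 8.10% of all genes tested (3.66% higher in Mettl3 knockdown and 4.44% lower). By edgeR, 0 members passed an unadjusted 0.05, where 22.0% of all genes tested did, and the other tools, DESeq2 and limma-voom, called 0. The median absolute log2 difference of the members was 0.03 against 0.07 over all genes tested. Libraries of the knockdowns did not overlap for 2 members, where 17.6% of all genes tested did not overlap. These were Cnot3, at 58.2 to 61.0 CPM in Mettl3 knockdown and 61.6 to 65.8 in Mettl14 knockdown, and Cnot7, at 144.8 to 150.9 and 140.9 to 143.8 CPM. Their adjusted p-values by edgeR were 0.275 and 0.409, and the 95% intervals of all 10 members reached from -12.1% (Pan3) to 14.3% (Cnot8). Cnot3 and Cnot7 were each called against scramble in 1 knockdown only, and the direct test called neither different between the knockdowns.

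Among the structural subunits, Cnot1, the scaffold on which the complex assembles and the docking partner of YTHDF2, varied little. It was at 276.1, 273.8 and 278.9 CPM in scramble, at 271.7, 280.9, 278.3 and 287.4 in Mettl3 knockdown, and at 286.4, 263.9, 283.8 and 280.9 in Mettl14 knockdown. The groups overlapped throughout, with the highest value in Mettl3 knockdown and the lowest in Mettl14 knockdown. The fitted log2 fold changes were 0.02 ± 0.03 (SE; edgeR adjusted p = 0.738) and 0.01 ± 0.03 (adjusted p = 0.824). The 3 genes of at least 10 CPM whose log2 CPM followed Cnot1 most closely over the 11 libraries were Sdhaf4 (Pearson r = 0.90), Prim2 (0.85) and Ppp1ccb (0.82). These correlations are a description from 9342 genes compared, over libraries that share groups and depth. Other genes share 10.7% of the 31-base stretches of the Cnot1 model, mostly Gm6158, which held 8 counts over all libraries together.

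Cnot3 encodes a NOT-module subunit that pairs with CNOT2 at one end of the scaffold. It was at 66.4, 69.9 and 63.3 CPM in scramble, at 61.0, 58.2, 59.9 and 60.1 in Mettl3 knockdown, and at 62.5, 65.8, 61.6 and 61.7 in Mettl14 knockdown. All 4 Mettl3 knockdown libraries lay below all 3 scramble libraries, while 1 Mettl14 knockdown library lay within the scramble range. Cnot3 fell by 0.15 ± 0.04 on the log2 scale in Mettl3 knockdown, a change of -10.1% (edgeR adjusted p = 0.00602). Its change in Mettl14 knockdown was -0.08 ± 0.04 (adjusted p = 0.161). The Mettl3 call held under all 19 alternatives, from -0.18 to -0.12, the smallest being -0.12 ± 0.04 (adjusted p = 0.0266) when scramble replicate 2, the highest library, was left out. Of the 31-base stretches of the Cnot3 model, 27.4% also occur in the pseudogene Gm9207, which was listed at 0 counts in every library.

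Its partner Cnot2 did not pass the test. It was at 76.7, 72.0 and 75.0 CPM in scramble, at 77.8, 80.4, 79.6 and 77.6 in Mettl3 knockdown, and at 79.0, 74.8, 81.0 and 78.5 in Mettl14 knockdown. The Mettl3 knockdown libraries all lay above scramble and the Mettl14 knockdown libraries overlapped it. Log2 fold changes were 0.08 ± 0.04 (edgeR adjusted p = 0.105) and 0.07 ± 0.04 (adjusted p = 0.179). Cnot10, a subunit bound at the opposite end of CNOT1, was at 69.3 to 71.5 CPM in scramble, 69.5 to 74.1 in Mettl3 knockdown and 73.5 to 75.8 in Mettl14 knockdown. The Mettl14 knockdown libraries were clear of scramble and the Mettl3 knockdown libraries were not, with log2 fold changes of 0.08 ± 0.03 (adjusted p = 0.135) and 0.04 ± 0.03 (adjusted p = 0.464).

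**Figure D2:**
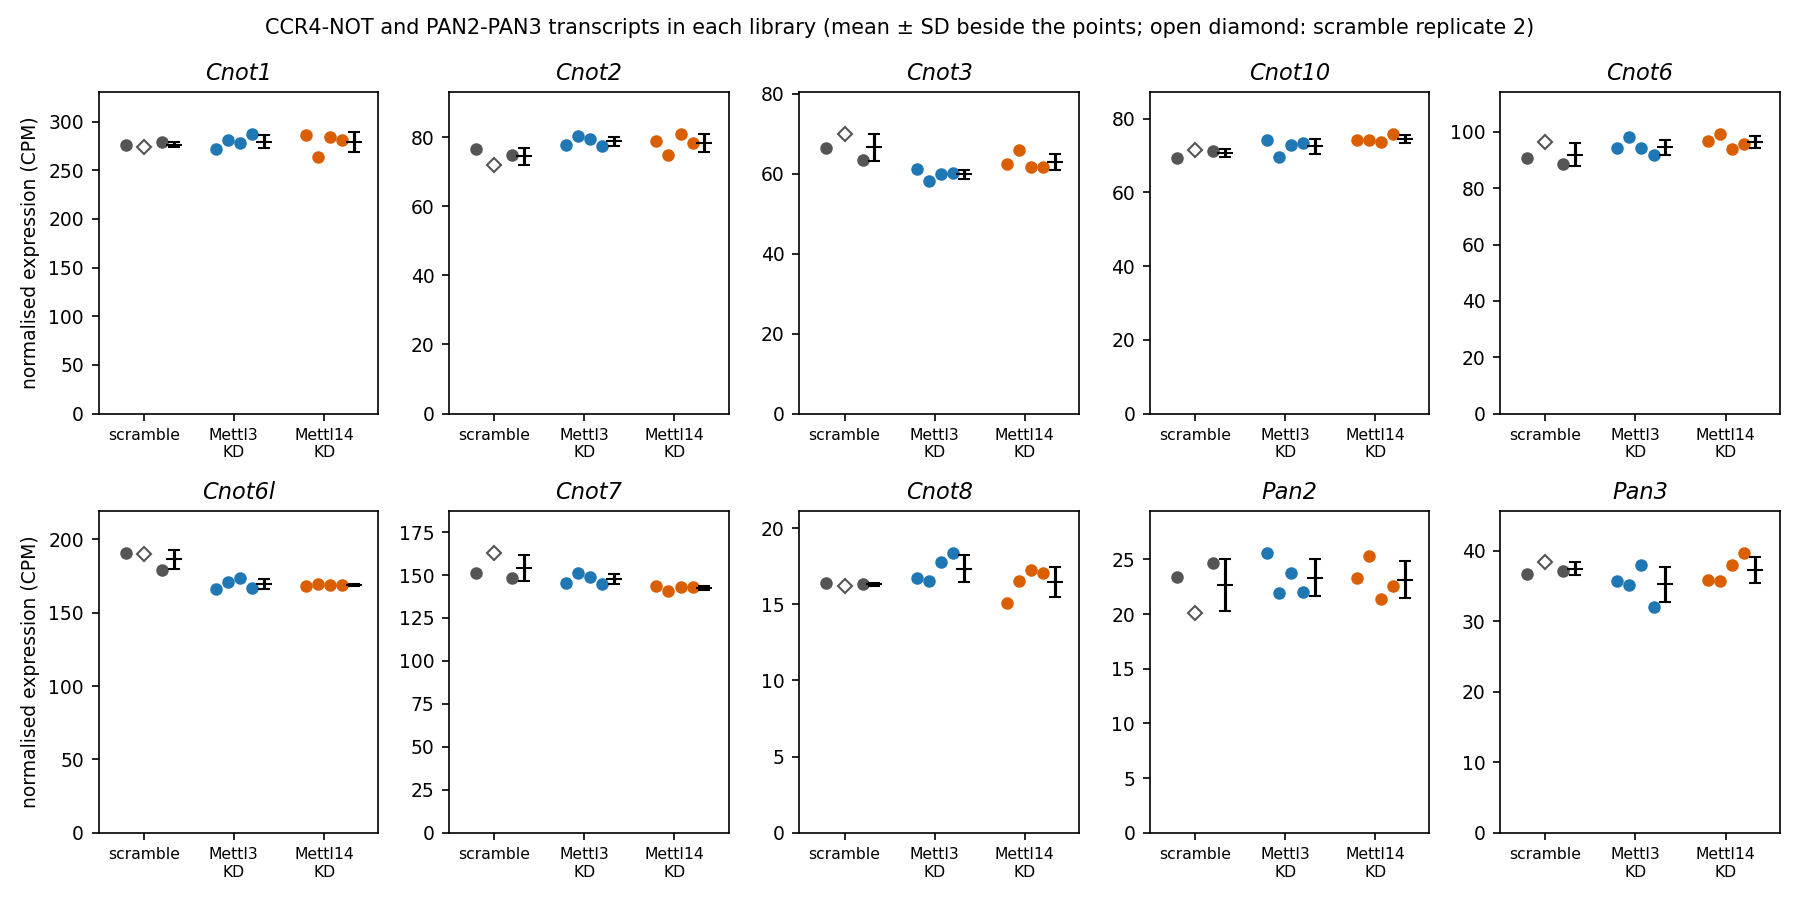
Normalised expression (CPM, linear axes from 0) of each gene in the 3 scramble, 4 Mettl3 knockdown and 4 Mettl14 knockdown libraries; points are libraries, bars beside them the mean ± SD, and the open diamond is scramble replicate 2. The knockdown points of Cnot6l all lie below its scramble points, while those of Cnot1 overlap them.

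Of the Ccr4-type pair, Cnot6l fell in both knockdowns and Cnot6 in neither. Cnot6l was at 190.6, 189.8 and 178.8 CPM in scramble, at 166.1, 170.7, 174.0 and 167.2 in Mettl3 knockdown, and at 168.5, 169.8, 168.9 and 169.0 in Mettl14 knockdown. Every knockdown library lay below every scramble library, and the Mettl14 knockdown libraries had the smallest spread of any member in any group, a coefficient of variation of 0.334%, below the 1.65% that counting error alone would give. Cnot6l fell by 0.14 ± 0.03 on the log2 scale in Mettl3 knockdown (-9.09%, edgeR adjusted p = 0.0023) and by 0.14 ± 0.03 in Mettl14 knockdown (-9.30%, adjusted p = 0.00322). Both calls held under all 19 alternatives, between -0.16 and -0.12. Scramble replicate 2 was within the scramble range for this gene, and without it the changes were -0.12 ± 0.03 (adjusted p = 0.00237) and -0.13 ± 0.03 (adjusted p = 0.00304).

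Cnot6, which encodes the alternative Ccr4-type nuclease, was at 90.6, 96.6 and 88.7 CPM in scramble, at 94.2, 98.2, 94.2 and 91.8 in Mettl3 knockdown, and at 96.9, 99.3, 93.9 and 95.6 in Mettl14 knockdown. The groups overlapped, with log2 fold changes of 0.04 ± 0.04 (edgeR adjusted p = 0.431) and 0.07 ± 0.04 (adjusted p = 0.201). The Mettl14 value became 0.10 ± 0.04 and passed the test (adjusted p = 0.0362) when scramble replicate 2 was left out.

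The balance within the Ccr4-type pair followed from these values. The ratio of Cnot6 to Cnot6l counts was 0.475, 0.509 and 0.496 in scramble, 0.567, 0.575, 0.541 and 0.549 in Mettl3 knockdown, and 0.575, 0.585, 0.556 and 0.565 in Mettl14 knockdown. All 8 knockdown libraries exceeded all 3 scramble libraries. The log2 ratio was -1.02 ± 0.05 (SD, n = 3) in scramble, -0.84 ± 0.04 (n = 4) in Mettl3 knockdown and -0.81 ± 0.03 (n = 4) in Mettl14 knockdown. The ratio was 13.2% higher in Mettl3 knockdown and 15.6% higher in Mettl14 knockdown. Each difference had an exact two-sided permutation p of 0.0571, the smallest that 4 against 3 libraries allow, so the design cannot reach 0.05. After adjustment over the 9 ratio tests each exact p was 0.257. The knockdowns differed by -0.03 in log2 ratio (exact permutation p = 0.314).

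**Figure D3:**
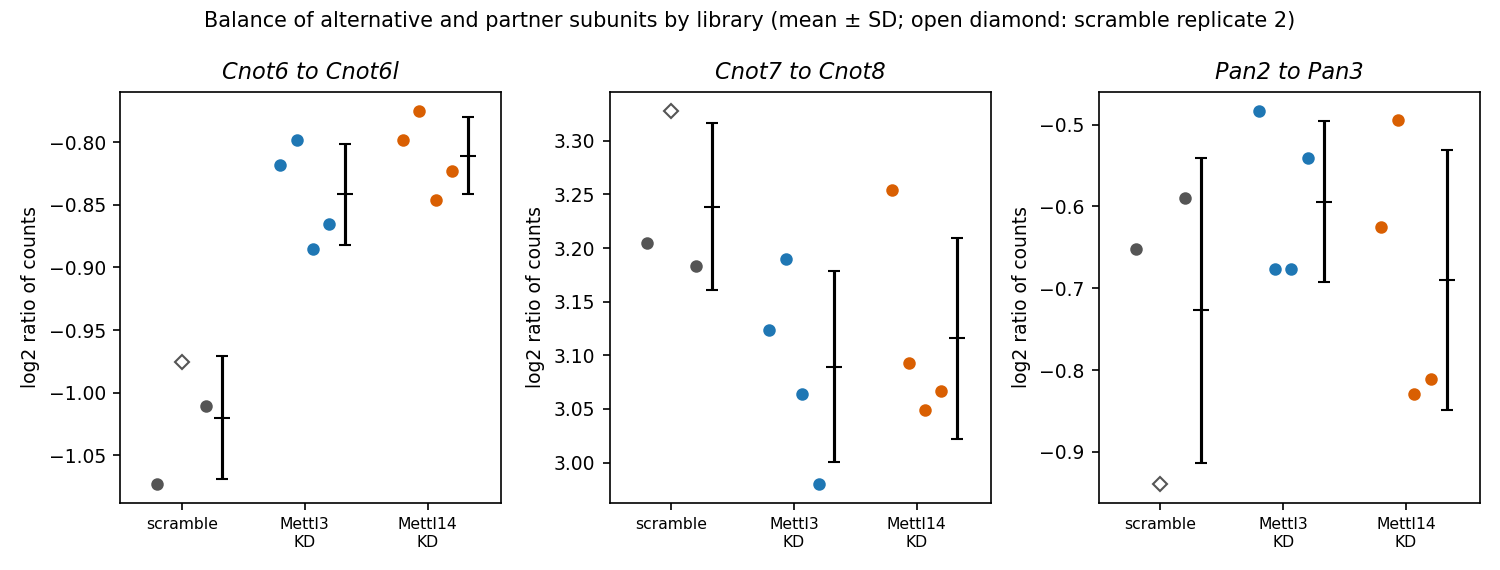
Log2 ratio of counts for Cnot6 to Cnot6l, Cnot7 to Cnot8 and Pan2 to Pan3 in each library, by group, with the mean ± SD; the axes do not start at 0, and the open diamond is scramble replicate 2. For Cnot6 to Cnot6l the knockdown libraries lie between -0.89 and -0.77, all above the scramble libraries at -1.07 to -0.98, while groups overlap for the other pairs.

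Of the Caf1-type pair, which supplies the second nuclease of the complex and binds the BTG and TOB adaptors, Cnot7 fell in Mettl14 knockdown. Cnot7 was at 150.9, 162.7 and 148.3 CPM in scramble, at 145.6, 150.9, 148.6 and 144.8 in Mettl3 knockdown, and at 143.8, 140.9, 142.8 and 142.8 in Mettl14 knockdown. The Mettl14 knockdown libraries lay below all of scramble, and 2 Mettl3 knockdown libraries lay within the scramble range. The log2 fold change was -0.11 ± 0.03 in Mettl14 knockdown (-7.37%, edgeR adjusted p = 0.0247) and -0.06 ± 0.03 in Mettl3 knockdown (adjusted p = 0.179). The Mettl14 call held in 11 of 19 alternatives. With scramble replicate 2, the highest library, left out it was -0.07 ± 0.03 (adjusted p = 0.123), and without Mettl14 knockdown replicate 1, 2, 3 or 4 the adjusted p was 0.0531, 0.0625, 0.0505 or 0.0632. The Mettl3 knockdown change without scramble replicate 2 was -0.02 ± 0.03 (adjusted p = 0.671).

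Cnot8, the scarcer Caf1-type gene, was at 16.2 to 16.4 CPM in scramble, 16.5 to 18.4 in Mettl3 knockdown and 15.1 to 17.2 in Mettl14 knockdown. The Mettl3 knockdown libraries all exceeded scramble, whose 3 values spread by 0.529%, less than the 5.35% that counting error alone gives. Log2 fold changes were 0.09 ± 0.06 (edgeR adjusted p = 0.296) and 0.01 ± 0.06 (adjusted p = 0.899). Of the 31-base stretches of the Cnot8 model, 14.7% also occur in Gm18860, which held 8 counts over all libraries together. The ratio of Cnot7 to Cnot8 counts ran from 7.89 to 10.04 over the 11 libraries, and groups overlapped. Its log2 difference from scramble was -0.15 in Mettl3 knockdown (exact permutation p = 0.114, adjusted 0.343) and -0.12 in Mettl14 knockdown (exact permutation p = 0.171, adjusted 0.386). Without scramble replicate 2 these differences were -0.10 and -0.08.

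The PAN2-PAN3 genes passed the test in no comparison. Pan2, the catalytic subunit, was at 23.3, 20.1 and 24.7 CPM in scramble, at 25.6, 21.9, 23.8 and 22.0 in Mettl3 knockdown, and at 23.3, 25.3, 21.3 and 22.6 in Mettl14 knockdown. The groups overlapped, and scramble replicate 2 was the lowest of the 11 libraries, 16.5% below the mean of the other scramble libraries. Log2 fold changes were 0.04 ± 0.07 (edgeR adjusted p = 0.741) and 0.02 ± 0.07 (adjusted p = 0.857), and turned to -0.04 ± 0.07 and -0.05 ± 0.07 without that library. Pan3, which holds PAN2 to the poly(A)-binding protein, was at 36.7, 38.5 and 37.2 CPM in scramble, at 35.7, 35.1, 38.0 and 32.1 in Mettl3 knockdown, and at 35.9, 35.7, 37.9 and 39.6 in Mettl14 knockdown. It gave -0.09 ± 0.05 (adjusted p = 0.239) and 0.00 ± 0.05 (adjusted p = 0.97), with overlapping groups. The log2 ratio of Pan2 to Pan3 differed from scramble by 0.13 in Mettl3 knockdown (exact permutation p = 0.343) and by 0.04 in Mettl14 knockdown (exact permutation p = 0.8), and by 0.03 and -0.07 with scramble replicate 2 left out. Genes whose log2 CPM followed Pan2 most closely were Tubb3 (r = 0.92), Alyref2 (r = 0.91) and R3hcc1 (r = 0.83), by the same rule and over the same libraries as for Cnot1.

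Libraries of a knockdown and scramble did not overlap for 4 members in Mettl3 knockdown (Cnot2, Cnot3, Cnot6l and Cnot8) and 3 in Mettl14 knockdown (Cnot6l, Cnot7 and Cnot10). Over all genes tested, 35.5% and 28.9% did not overlap. Counting error alone gives a coefficient of variation of 1.26% for Cnot1 and 5.35% for Cnot8, the lowest and the highest of the members, and the widest spread measured in a group was 10.5%, for Pan2 in scramble.

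The members differed in the motif whose windows are printed above. GGACT occurred at least once in 8 of 10 transcript models, against 91.7% of the 12185 tested genes with a model, and in the 3′ UTR of 3 of 10, against 58.5%. The models of Cnot3 and Cnot6l held none, as did 8.35% of the tested genes with a model. Among 1580 and 1604 genes with models within 10% of their lengths, 94.7% and 96.4% held at least 1. The longest Cnot6l transcript, of 8564 bases, held 3 copies, all in its 3′ UTR of 6847 bases. Cnot6, in contrast, held 11 copies, 8 of them in the 3′ UTR, and 4.33% of 877 genes of like length held as many. Cnot1 also held 11, all in the coding part, and Pan2 held 8, all coding. Pan3 held 4, Cnot10 3, Cnot2 and Cnot7 2 each, and Cnot8 1. The median density was 0.718 per kilobase for the members and 1.04 for all genes with a model. Which transcripts these cells use was not measured, and a missing motif says only that these letters are not in the model.

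Of the CCR4-NOT subunits outside the 10, Cnot4 (a ubiquitin ligase) and Cnot9 (a docking subunit for adaptor proteins) were called in no comparison. Cnot11, which binds CNOT10, differed between the knockdowns. It was at 46.5, 56.7 and 50.5 CPM in scramble, at 58.2, 56.5, 57.3 and 54.1 in Mettl3 knockdown, and at 46.2, 45.9, 48.2 and 46.3 in Mettl14 knockdown. All Mettl3 knockdown libraries lay above all Mettl14 knockdown libraries, and scramble, from 46.5 to 56.7, spanned the gap between them and overlapped both. Cnot11 was 0.28 ± 0.05 higher on the log2 scale in Mettl3 than in Mettl14 knockdown (edgeR adjusted p = 0.000752), a call that held under all 19 alternatives. Against scramble it was 0.14 ± 0.05 in Mettl3 knockdown (adjusted p = 0.0353) and -0.13 ± 0.05 in Mettl14 knockdown (adjusted p = 0.0729). The Mettl3 call held in 12 of 19 alternatives. It was lost with DESeq2 (adjusted p = 0.0557), with only the 2 groups in the fit (0.0758), without scramble replicate 1 (0.08, adjusted p = 0.256) or 3 (0.0786), and without Mettl3 knockdown replicate 1 (0.094), 2 (0.0672) or 3 (0.0799). Leaving out scramble replicate 2 gave 0.22 ± 0.04 (adjusted p = 0.000165) and -0.06 ± 0.05 (adjusted p = 0.443), and without scramble replicate 1 the Mettl14 value was -0.20 ± 0.05 (adjusted p = 0.00722).

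Adaptors that recruit the deadenylases included Nanos1, the gene with the largest called change of the decay lists. Of 22 listed recruiters, 19 were tested, and 3 rose and 6 fell in Mettl3 knockdown, while 0 rose and 4 fell in Mettl14 knockdown. Of all genes tested, 15.5% rose and 15.8% fell in Mettl3 knockdown, and 10.1% rose and 10.8% fell in Mettl14 knockdown. Beside the 0 recruiters that rose, DESeq2 called 0 higher and edgeR's unadjusted p was under 0.05 for 2. Their median log2 fold changes were -0.05 and -0.01, where those of all genes tested were 0.00 and 0.00. When scramble replicate 2 was left out, the recruiter counts were 2 and 5 in Mettl3 knockdown, with a median of 0.02, and 1 and 4 in Mettl14 knockdown.

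Nanos1, whose product binds CNOT1, was at 23.7, 26.5 and 25.2 CPM in scramble, at 18.1, 16.8, 17.8 and 17.8 in Mettl3 knockdown, and at 18.8, 15.4, 18.3 and 16.3 in Mettl14 knockdown. No knockdown library reached the scramble range. Nanos1 fell by 0.51 ± 0.07 (edgeR adjusted p = 6.2e-06) and by 0.54 ± 0.07 (adjusted p = 5.03e-06) on the log2 scale. Btg1 and Tob2, whose products bind the Caf1-type nucleases, fell as well, Btg1 by 0.21 ± 0.04 and 0.32 ± 0.04, and Tob2 by 0.24 ± 0.04 and 0.17 ± 0.04, with every knockdown library below scramble. Samd4b fell in both knockdowns and Tnrc6c and Pum2 in Mettl3 knockdown. Btg2, Ythdf1 and Ythdf2 rose in Mettl3 knockdown. These 6 were named after their values were seen. The readers Ythdf1 and Ythdf2 gave 0.11 ± 0.04 (adjusted p = 0.0245) and 0.14 ± 0.04 (adjusted p = 0.0195) there, and neither was called in Mettl14 knockdown. The Ythdf1 call was lost without scramble replicate 3 (adjusted p = 0.0901), and that of Ythdf2 without scramble replicate 2 (0.09, adjusted p = 0.109) or Mettl3 knockdown replicate 3 (adjusted p = 0.0608). The Mettl3 call of Pum2 held in 8 of 19 alternatives, that of Tnrc6c in 18, without scramble replicate 1 being the exception (adjusted p = 0.0623), and the Mettl14 call of Samd4b in 13, with -0.07 and an adjusted p of 0.132 without scramble replicate 2.

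Of 6 genes listed as other deadenylases or their relatives, 1 rose in Mettl3 knockdown. This was Angel2, a relative of the Ccr4-type nucleases, which rose by 0.16 ± 0.04 (edgeR adjusted p = 0.00154). It went from 78.8 to 80.8 CPM in scramble to 87.3 to 91.5. Whether the Angel2 product acts as a deadenylase was not tested. In Mettl14 knockdown edgeR called 0 of the 6 and DESeq2 called 0, and 0 passed an unadjusted 0.05. Of all genes tested, 15.5% were called higher in Mettl3 knockdown. In Mettl14 knockdown 20.9% were called in either direction, and 33.5% passed an unadjusted 0.05. Among 13 poly(A)-binding proteins, their regulators and tail polymerases, 2 rose and 2 fell in Mettl3 knockdown, and 2 rose and 1 fell in Mettl14 knockdown, beside 15.5% and 15.8% of all genes tested in the former and 10.1% and 10.8% in the latter. Those that rose were Pabpn1, the nuclear poly(A)-binding protein, and Pabpc4, a cytoplasmic one, in both. Pabpn1 went from 55.6 to 62.2 CPM in scramble to 72.0 to 75.8 in Mettl3 knockdown and 68.5 to 77.3 in Mettl14 knockdown, with log2 fold changes of 0.34 ± 0.05 (adjusted p = 1.06e-05) and 0.29 ± 0.05 (adjusted p = 0.000138). Pabpc4 rose by 0.15 ± 0.03 and 0.17 ± 0.03.

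Paip2, which encodes an inhibitor of cytoplasmic poly(A)-binding protein, fell in Mettl3 knockdown by 0.28 ± 0.04 (edgeR adjusted p = 1.54e-05). It was at 129.1 to 133.3 CPM in scramble, 105.2 to 110.3 in Mettl3 knockdown and 116.9 to 133.3 in Mettl14 knockdown, where the change was -0.06 ± 0.04 (adjusted p = 0.275). The other genes that fell, named after their values were seen, were the poly(A) polymerase gene Papola in Mettl3 knockdown and Tent4b in Mettl14 knockdown. Without scramble replicate 2, 3 genes of this list fell in Mettl3 knockdown and 2 in Mettl14 knockdown, where 2 rose in each.

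Downstream of deadenylation, 7 of 19 genes of decapping and 5′ to 3′ decay rose in Mettl3 knockdown and 1 fell, beside the 15.5% and 15.8% of all genes tested given above. In Mettl14 knockdown 1 rose and 0 fell, where 10.1% and 10.8% of all genes tested did, beside 3 lower at an unadjusted p under 0.05, and DESeq2 called 3 higher and 0 lower. Whether these counts differ between the knockdowns was not tested, although 0 of the 19 were called between them by edgeR (6 at an unadjusted p under 0.05) and 0 by DESeq2. Over all settings, 0 to 1 were called higher and 0 to 1 lower in Mettl3 than in Mettl14 knockdown. Median log2 fold changes were 0.10 and 0.08, where those of all genes tested were -0.004 and 0.0003. The list medians are not given without scramble replicate 2 and may depend on it. Lsm5, a ring subunit that binds deadenylated 3′ ends, rose in Mettl3 knockdown by 0.24 ± 0.05 (adjusted p = 0.00124), from 21.4 to 22.8 CPM in scramble to 24.95 to 27.8. Dcps, the scavenger enzyme for cap remnants, rose by 0.21 ± 0.05 (adjusted p = 0.00445). In Mettl14 knockdown Lsm6, another ring subunit, rose by 0.23 ± 0.06 (adjusted p = 0.0169), with scramble at 92.1, 75.4 and 90.4 CPM and the knockdown at 97.3 to 108.5, a call that held in 17 of 19 alternatives and that gave 0.14 ± 0.04 (adjusted p = 0.00937) without scramble replicate 2, the lowest of the scramble values. The 1 that fell in Mettl3 knockdown was Patl1, named after its value was seen, and its call held in 16 of 19 alternatives. It was lost with no filter on low counts (edgeR adjusted p = 0.0531), with only the 2 groups in the fit (0.0501) and without scramble replicate 2 (0.0724). Between the knockdowns Patl1 was called in 3 of 19 alternatives, among them without scramble replicate 2 (edgeR adjusted p = 0.04). Leaving out scramble replicate 2 gave counts of 7 and 1 in Mettl3 knockdown, the 1 being a gene other than Patl1, and 3 and 2 in Mettl14 knockdown. The 7 that rose in Mettl3 knockdown became 4 without Mettl3 knockdown replicate 4 or with only the 2 groups in the fit, and 5 without its replicate 1, 2 or 3. The 1 that rose in Mettl14 knockdown became 3 without scramble replicate 1, 2 without scramble replicate 3, and 0 with only the 2 groups.

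In the exosome and Ski complex, which degrade RNA from the 3′ end, 5 of 14 genes rose in Mettl3 knockdown and 0 fell, with 0 lower at an unadjusted p under 0.05 and 0 by DESeq2. In Mettl14 knockdown 2 rose and 0 fell, with 1 lower at an unadjusted p under 0.05 and 0 by DESeq2. Beside these stand 15.5% higher and 15.8% lower of all genes tested in Mettl3 knockdown, and 10.1% and 10.8% in Mettl14 knockdown. The median log2 fold changes were 0.12 and 0.08, where those of all genes tested were -0.004 and 0.0003. These list medians, too, are not given without scramble replicate 2 and may depend on it. Exosc9, a ring subunit of the exosome, rose in both, by 0.30 ± 0.07 (edgeR adjusted p = 0.00163) and 0.32 ± 0.07 (adjusted p = 0.00172). It was at 30.2, 24.7 and 28.3 CPM in scramble and at 31.9 to 36.4 and 32.96 to 35.7 in the knockdowns. Without scramble replicate 2 its changes were 0.22 ± 0.06 (adjusted p = 0.00274) and 0.24 ± 0.06 (adjusted p = 0.00209). Exosc4, also of the ring, rose in Mettl3 knockdown by 0.33 ± 0.06 (adjusted p = 0.000131). The other 3 that rose there, named after their values were seen, were Exosc7, Exosc1 and Hbs1l, of which Exosc1 held its call in 13 of 19 alternatives. Exosc3 rose in Mettl14 knockdown by 0.22 ± 0.07 (adjusted p = 0.044), a call that held in 7 of 19 alternatives and that gave 0.13 ± 0.06 (adjusted p = 0.184) without scramble replicate 2. The call was also lost without scramble replicate 1 (adjusted p = 0.0874), without Mettl3 knockdown replicate 1 (0.0572) or 3 (0.0611), and without any of Mettl14 knockdown replicates 1 to 4 (0.0704 to 0.0944). With scramble replicate 2 left out, 5 exosome and Ski genes rose and 0 fell in Mettl3 knockdown, and 1 rose and 1 fell in Mettl14 knockdown. In the latter the count that rose was also 1 without scramble replicate 1, Mettl3 knockdown replicate 1 or 3, or any 1 Mettl14 knockdown library, and 3 without scramble replicate 3.

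**Figure D4:**
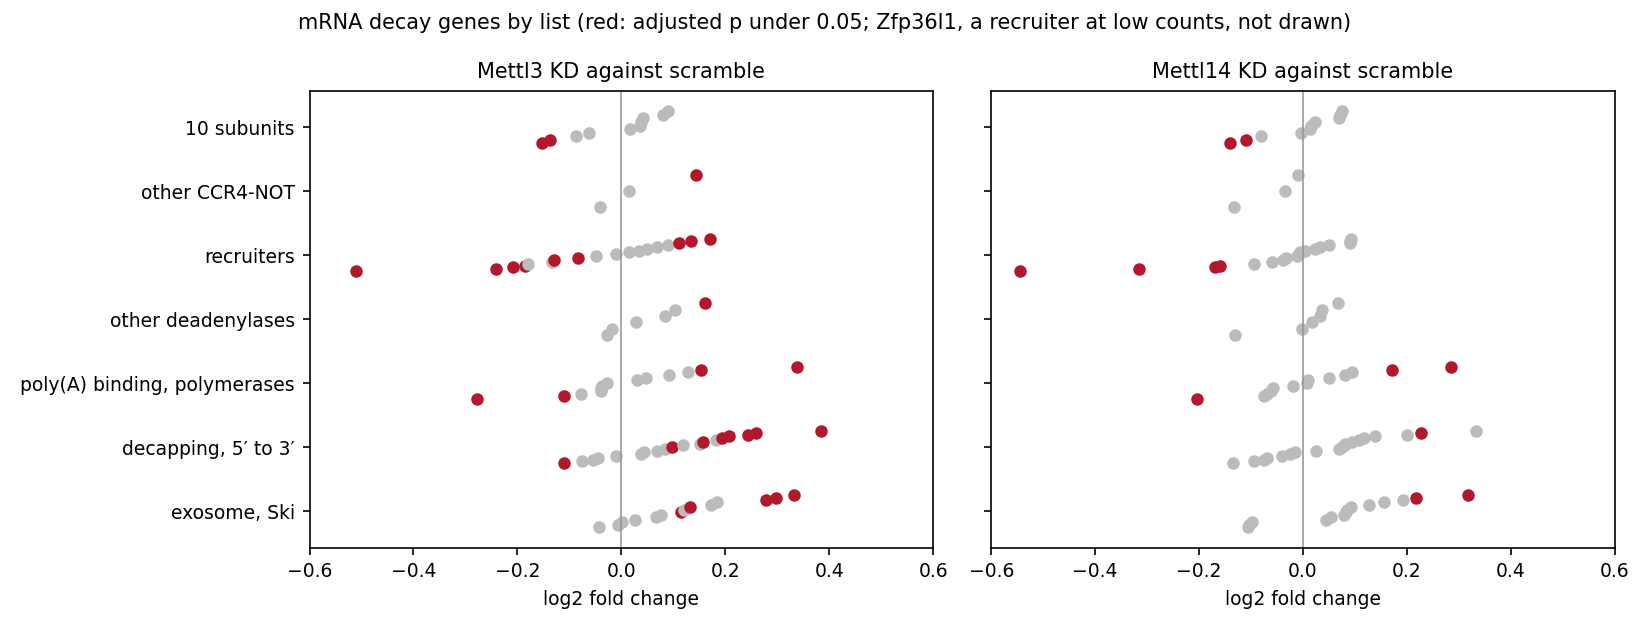
Log2 fold change against scramble of each tested gene in 7 lists of mRNA decay genes, 1 point a gene, for Mettl3 knockdown (left) and Mettl14 knockdown (right); red points have an edgeR adjusted p under 0.05, and the recruiter Zfp36l1, at low counts, is not drawn. The 10 deadenylation genes lie between -0.15 and 0.09, while the recruiter Nanos1 lies at -0.51 and -0.54.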

How the data were processed

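The authors deposited one table of expected counts per gene and library, keyed by Ensembl gene identifiers. The submitters' processing notes name kallisto, without a version; the sources used here do not give its settings, the genome build or how transcripts were summed, and no coordinates are printed. Values that were not whole (11.6%) were rounded. Rows without a symbol (0.518% of counts) stayed in library sizes and tests, since each names a gene. Of 53947 rows, 48651 had a symbol; all 122 listed names matched 1 row, the Ski genes under older symbols.

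CPM and tests used TMM scaling, filterByExpr (minimum count 10) and a quasi-likelihood fit of all 11 libraries in edgeR 4.0.16 (R 4.3.3), with 8 residual degrees of freedom and a common coefficient of variation of 4.38%. The fit was tested on simulated counts with known fold changes. Alternatives used DESeq2 1.42.0, limma 3.58.1, other scalings and filters, and leaving out each library. Ratios were tested in SciPy 1.17.1. Motifs were counted in the GENCODE M21 transcript with the longest complete coding part.

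Members, lists and comparisons were chosen with earlier results of these data known. All members were named, with the 2 genes of smallest adjusted p of each list in each knockdown, if called, and the 3 genes most correlated with Cnot1 and Pan2. The main fit did not pair libraries of equal replicate number. Deviations from the group mean correlated from -0.118 to 0.0674 between groups for equal numbers and from -0.1003 to 0.137 for unequal ones. Such correlations, centred within small groups, cannot exclude shared batches. Replicate pairs differed beyond counting noise (chi-square per degree of freedom at least 2.11, up to 15.3 with scramble replicate 2).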

Additional observations from a re-analysis of the deposited data

Results flagged for a closer look

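Genes of the decay lists whose change against scramble differed between the knockdowns in a direct test are given here as values, with no cause tested. Between the knockdowns, 8.10% of all genes tested were called, and the libraries did not overlap for 17.6%. The genes below were picked by that test, so a lack of overlap among them is not separate support. Cnot11 was 0.28 higher on the log2 scale in Mettl3 than in Mettl14 knockdown (edgeR adjusted p = 0.000752), higher in 4 of 4 libraries than in any Mettl14 knockdown library, at 56.5 ± 1.74 against 46.6 ± 1.05 CPM (SD, n = 4 each). Exosc4 was 0.21 higher (edgeR adjusted p = 0.0155), at 27.5 to 32.1 against 25.3 to 25.8 CPM. The Exosc4 difference no longer passed without Mettl3 knockdown replicate 1 (0.16, adjusted p = 0.0686) or 4 (0.19, adjusted p = 0.0546). Paip2 differed by -0.22 (edgeR adjusted p = 0.000607), at 105.2 to 110.3 CPM in Mettl3 knockdown against 116.9 to 133.3. Among genes named after their values were seen, Ythdf1 was 0.12 higher in Mettl3 than in Mettl14 knockdown (edgeR adjusted p = 0.0329), Btg2 0.23 higher (adjusted p = 0.000983) and Tent4b 0.16 higher (adjusted p = 0.0099), while Tnrc6c differed by -0.18 (adjusted p = 0.00203), each with no overlap between the knockdowns' libraries. The Ythdf1 difference held in 10 of 19 alternatives, and was among others lost with DESeq2 (adjusted p = 0.0568) and without any of Mettl3 knockdown replicates 1 to 4 or Mettl14 knockdown replicates 1, 2 and 4 (adjusted p from 0.0546 to 0.112). Dixon's criterion for a library far from the rest was applied to each member and each of the 3 ratios within each knockdown. These made 26 sets of 4 libraries, and 0 held one. The genes named above in this section were not put to it. Scramble, with 3 libraries, was not put to it, so the result says nothing about scramble replicate 2.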

How the results depend on the processing

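Of the members, Cnot3 in Mettl3 knockdown and Cnot6l in both knockdowns were called under all 19 alternatives. In Mettl14 knockdown the number of members called lower was 1 with limma-voom quality weights, with the replicate block and with only 2 groups in the fit, and 1 to 2 when single libraries were left out; the number called higher was 0 to 1. Cnot7 lost its call in that comparison with quality weights (adjusted p = 0.0744), 2 groups (0.0533) and the replicate block (0.0632). The block also ended the call of the Ythdf1 difference between the knockdowns (0.12, adjusted p = 0.0692). The replicate block left 3784, 2335 and 839 genes called in the 3 comparisons. Between the knockdowns, 2038 genes were called with quality weights and 2187 with only 2 groups, and 713 to 2125 when single libraries were left out, the highest without scramble replicate 2. The causes were not tested.

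Reversals concerned uncalled values near 0. With quality weights, Pan2 became -0.0298 in Mettl3 knockdown and -0.0468 in Mettl14 knockdown, and in the latter Pan3 became 0.0155, Ythdf1 0.0099 and Ythdf2 -0.015. There Pan3 became 0.00076 with no filter and 0.0018 with the replicate block, and Cnot8 became -0.0088 and Ythdf1 0.00032 with the block. With single libraries left out, Pan2 ran from -0.041 to 0.11 in Mettl3 knockdown, and in Mettl14 knockdown Pan2 ran from -0.0547 to 0.0962, Pan3 from -0.0299 to 0.0187, Cnot8 from -0.0086 to 0.0600, Ythdf1 from -0.0256 to 0.0129, Ythdf2 from -0.0256 to 0.0522, Patl1 from -0.0364 to 0.0025 and Btg2, called without scramble replicate 2, from -0.124 to 0.00036. Between the knockdowns, log2 differences so obtained ran from -0.0213 to 0.0181 for Cnot1, -0.0126 to 0.0237 for Cnot2, -0.0094 to 0.0122 for Cnot6l, -0.0338 to 0.0589 for Pan2, -0.0147 to 0.0805 for Nanos1, -0.0507 to 0.0118 for Exosc9 and -0.0803 to 0.0056 for Exosc3. The log2 ratio of Cnot7 to Cnot8 ran from -0.0601 to 0.0195 between the knockdowns, and that of Pan2 to Pan3 from -0.0691 to 0.105 in Mettl14 knockdown. Cnot8 and Pan2 had the lowest counts and so the largest counting error, 5.35% and 4.52% in scramble. The measured spread of Pan2 was above its counting error in each group, at 10.5% in scramble.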
